A study of Homo sapiens with 6 samples.

Results

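The genes described are 56 genes, most of them of the kinetochore, the spindle assembly checkpoint, the mitotic spindle and cytokinesis. They were chosen by name, with earlier results of these data known, so their counts beside all genes are a description and not a test. Each was read through the brightest probe set that names it alone, and all 56 were found among the 17534 genes measured. Expression had been measured on 6 Affymetrix PrimeView arrays in MM.1R, a human multiple myeloma cell line that resists glucocorticoids. On 3 arrays the cells had been given Epirubicin Hydrochloride, an anthracycline that poisons topoisomerase II, and the submitters' stated aim was to stop proliferation. The cells of the other 3 arrays had been infected with the control vector shCtrl. Because the labels name a vector for the control arrays alone, an effect of the drug and one of lacking the vector cannot be told apart. The sources used here give neither dose nor duration. They also do not say whether replicate arrays stem from separate cultures, so p-values measure only the spread between these arrays, which may be technical.

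Kinetochores are protein assemblies built on centromeric chromatin, which is marked by the histone variant CENP-A. An inner layer, the constitutive centromere-associated network, stays on the chromosome through the cell cycle. An outer layer forms in mitosis and binds microtubules, and until every kinetochore is attached the spindle checkpoint holds back anaphase. Afterwards the central spindle and the midbody guide the cell's division. Many of these genes are transcribed mostly in G2 and mitosis, through a promoter element called the CHR that the DREAM and MMB complexes bind, while genes of DNA replication rely on E2F sites and peak earlier.

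Of the 56 genes, 29 fell with epirubicin and 0 rose. A gene was called lower or higher at a limma adjusted p under 0.05 over all 17534 genes together with a fold of at least 1.3. Over all genes 2.14% were called lower and 4.36% higher, 6.51% in all. The median log2 fold change, epirubicin minus control, was -0.42 over the 56 genes and 0.02 over all genes. Of the 19 genes of the whole array that were at least 2-fold lower (0.108% of all), 7 belong here. They are the DNA helicase PIF1 and FAM83D, NEK2, DLGAP5, AURKA, CENPE and SGO2. The 3 epirubicin arrays lay below all 3 control arrays for 45 of the 56, against 20.1% of all genes, and above them for 3, against 23.8% of all genes. For the other 8 the groups overlapped, whereas 43.8% of all genes had groups apart in either direction. Without the fold threshold 42 were lower and 3 higher, beside 13.5% and 15.6% of all genes. In a whole culture, fewer cells in G2 and mitosis and less RNA in each such cell cannot be told apart.

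The roles differed in how much of each was called. Spindle genes had 10 of 13 lower, cytokinesis genes 5 of 6 and the chromosomal passenger complex 3 of 4. Checkpoint genes had 4 of 7 lower, outer kinetochore genes 3 of 10 and constitutive centromere genes 1 of 13. Over all genes 2.14% were called lower, and a count of 1 among 13 genes is near that share. The 3 genes placed in none of these roles, labelled other mitotic, were all lower: CDCA3, CKS2 and PIF1, the last a DNA helicase. The median log2 fold change was -0.75 for those 3, -0.74 for the spindle, -0.67 for the passenger complex, -0.56 for the checkpoint, -0.42 for cytokinesis, -0.17 for the outer kinetochore and -0.06 for the constitutive centromere. These medians were not tested between roles, which were also set with earlier results known. Every role held at least 1 gene that fell, and in all but a group of 3 other mitotic genes each held at least 1 that was not called.

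**Figure D1:**
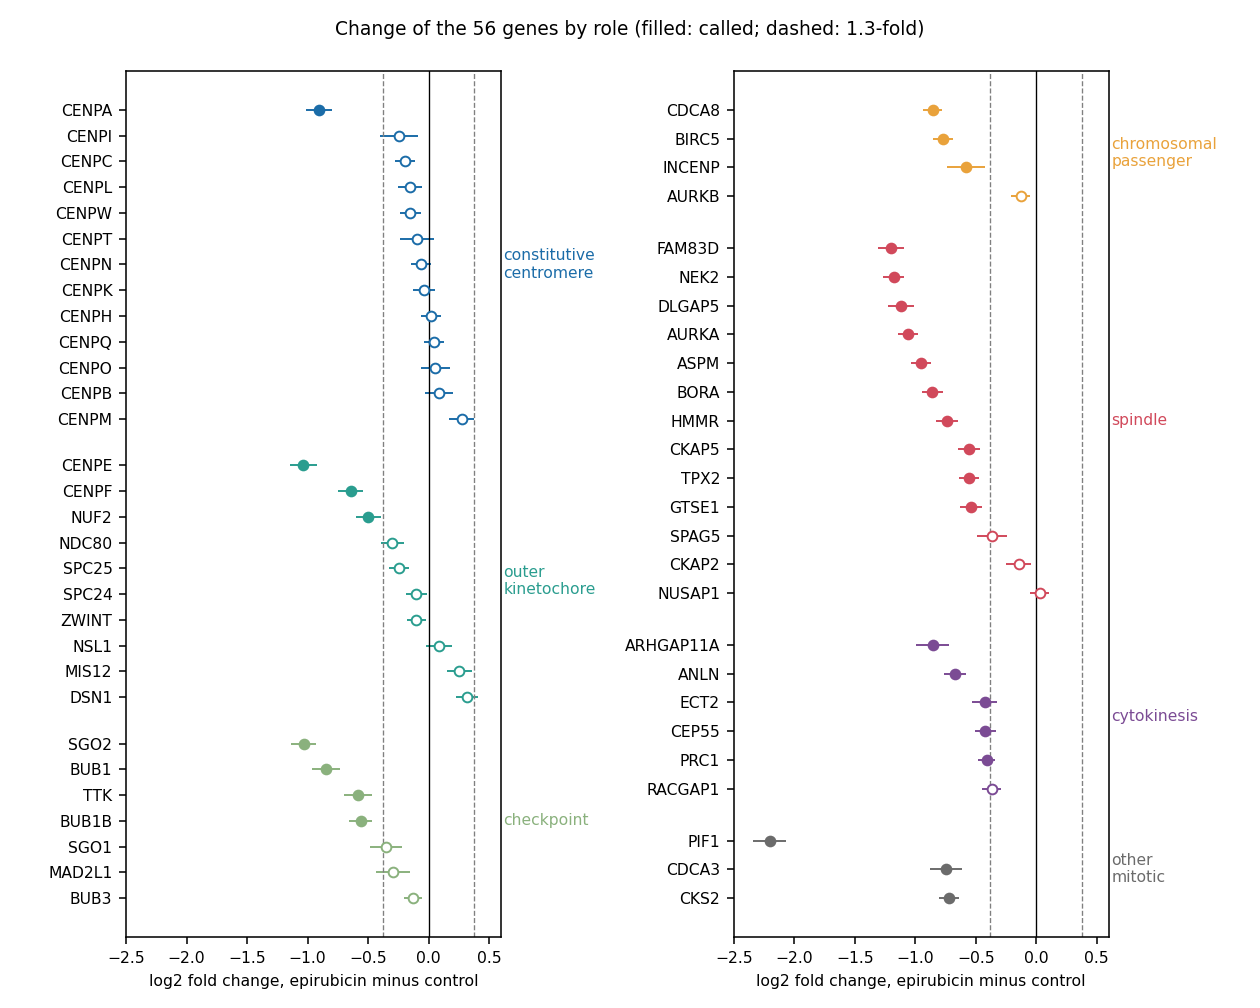
Log2 fold change (x axis, epirubicin minus control) of each of the 56 genes (rows), grouped by role, with 95% confidence intervals of limma as bars. Filled points were called and dashed lines mark 1.3-fold. CENPA is the only filled point among 13 constitutive centromere genes, while 10 of 13 spindle genes are filled. Over all genes 2.14% were called lower.

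The promoters of these genes were read for the elements named above. RefSeq windows of 300 bases on GRCh38.p14, from 250 before to 50 after the gene start, were matched by symbol for 46 of the 56 genes, 24 of them called lower. The genes without one were AURKA, BIRC5, BUB3, CENPH, CENPL, CENPM, FAM83D, RACGAP1, TPX2 and TTK. Exact matches on both strands were counted of the CHR (TTTGAA), of the CCAAT box (CCAAT), which NF-Y binds, and of 2 E2F cores (TTCCCGC and TTGGCGC).

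A CHR was present in 19 of the 24 windows of genes that fell (79.2%), in 9 of the 22 of genes not called (40.9%), and in 12.1% of the 14155 windows of all genes tested, or 15.4% of all 27305 windows. The CCAAT box stood in 79.2% of the first, 59.1% of the second and 36.4% of all genes tested. An E2F core stood in 16.7%, 27.3% and 12.6% of them. Of the 26 CHR matches in genes that fell, 19 lay within 60 bases of the gene start, as did 8 of the 10 in genes not called. Positions were not counted over all genes tested, so closeness to the start is not shown to be particular to these genes. A match overlapped a CCAAT match in 1 case. These are counts of letters and not of bound sites.

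The 4 genes with the largest fall among those whose window held a CHR are shown first, and for contrast the 2 genes not called that had the smallest change among those with a window, of which NUSAP1 holds a CHR and CENPK none. Capitals mark CHR and CCAAT matches on either strand, and each runs 5′ to 3′ along the gene's own strand. The windows are those of PIF1 at chr15:64825598-64825897 (minus strand), DLGAP5 at chr14:55191536-55191835 (minus), ASPM at chr1:197146620-197146919 (minus), CENPA at chr2:26785806-26786105 (plus), NUSAP1 at chr15:41332631-41332930 (plus) and CENPK at chr5:65563119-65563418 (minus).
PIF1: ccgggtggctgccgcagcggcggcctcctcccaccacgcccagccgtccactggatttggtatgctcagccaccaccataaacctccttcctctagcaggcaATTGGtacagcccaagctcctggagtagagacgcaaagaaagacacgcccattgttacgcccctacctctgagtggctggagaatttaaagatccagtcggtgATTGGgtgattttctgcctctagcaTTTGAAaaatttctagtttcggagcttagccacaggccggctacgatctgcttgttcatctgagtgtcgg
DLGAP5: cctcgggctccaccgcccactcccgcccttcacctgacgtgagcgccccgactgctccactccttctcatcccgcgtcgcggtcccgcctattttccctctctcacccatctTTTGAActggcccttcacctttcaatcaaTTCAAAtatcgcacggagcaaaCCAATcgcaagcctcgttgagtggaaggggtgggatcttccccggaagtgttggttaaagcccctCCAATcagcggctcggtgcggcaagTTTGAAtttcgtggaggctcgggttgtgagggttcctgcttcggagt
ASPM: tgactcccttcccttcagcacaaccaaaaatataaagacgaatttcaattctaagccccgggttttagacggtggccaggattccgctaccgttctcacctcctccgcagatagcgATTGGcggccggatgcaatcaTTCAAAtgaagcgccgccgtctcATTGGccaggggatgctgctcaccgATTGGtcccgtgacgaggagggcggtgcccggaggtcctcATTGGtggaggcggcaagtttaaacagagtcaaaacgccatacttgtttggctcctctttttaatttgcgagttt
CENPA: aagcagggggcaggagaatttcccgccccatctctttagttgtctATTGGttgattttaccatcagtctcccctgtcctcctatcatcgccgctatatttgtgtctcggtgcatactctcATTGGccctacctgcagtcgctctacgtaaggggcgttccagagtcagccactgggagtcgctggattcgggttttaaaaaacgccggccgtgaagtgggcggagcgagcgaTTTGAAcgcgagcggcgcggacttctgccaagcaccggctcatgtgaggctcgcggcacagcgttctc
NUSAP1: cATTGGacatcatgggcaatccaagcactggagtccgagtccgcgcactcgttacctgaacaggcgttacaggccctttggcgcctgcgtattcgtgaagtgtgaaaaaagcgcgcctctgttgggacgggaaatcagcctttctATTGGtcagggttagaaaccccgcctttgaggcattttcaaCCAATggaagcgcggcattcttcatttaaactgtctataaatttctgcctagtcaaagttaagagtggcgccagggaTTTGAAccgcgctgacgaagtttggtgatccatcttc
CENPK: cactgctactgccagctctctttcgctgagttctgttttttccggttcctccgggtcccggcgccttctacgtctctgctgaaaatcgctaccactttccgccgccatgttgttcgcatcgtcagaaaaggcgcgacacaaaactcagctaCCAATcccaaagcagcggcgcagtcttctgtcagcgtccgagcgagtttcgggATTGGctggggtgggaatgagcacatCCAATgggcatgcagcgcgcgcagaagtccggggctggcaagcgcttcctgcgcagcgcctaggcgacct
In PIF1 the CHR begins 20 bases before the gene start and in CENPA 18 before it, each preceded upstream by CCAAT matches. DLGAP5 has 3 CHR matches, beginning at -138, -109 and 4. ASPM has 1, at -113, among 4 CCAAT matches. NUSAP1 carries a CHR at 14 and 3 CCAAT matches and did not fall, so in these genes a CHR in the window did not go with a fall every time. The converse also occurred: CENPE, SGO2, NEK2, BUB1 and ARHGAP11A fell without this motif in their window.

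**Figure D2:**
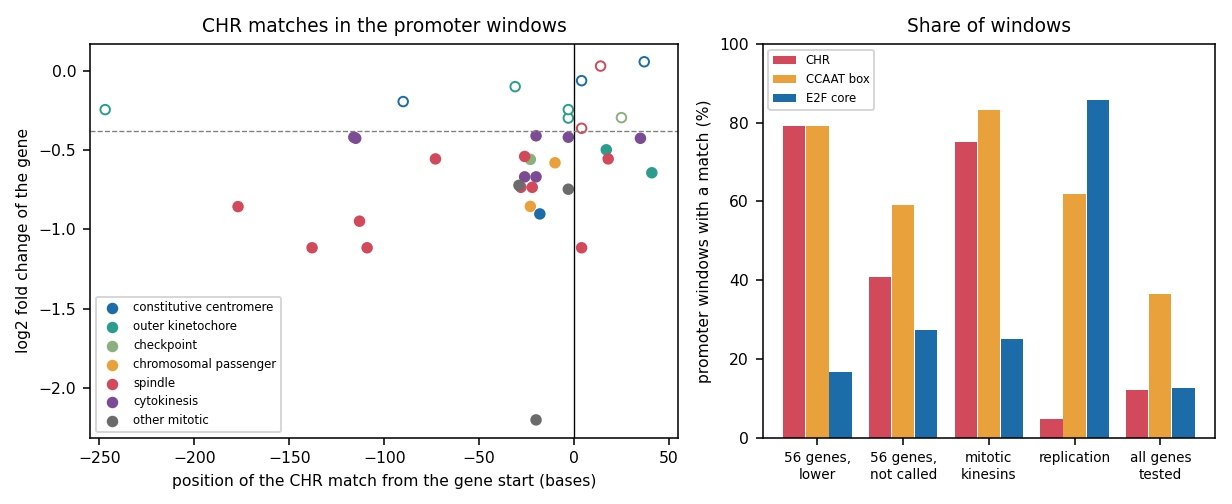
Left, each CHR match by its position from the gene start (x axis, bases) and the log2 fold change of its gene (y axis), coloured by role and filled where the gene was called lower. Right, percent of promoter windows with a CHR, a CCAAT box or an E2F core; the CHR bar is 79.2% for genes that fell and 12.1% for all genes tested, and the E2F bar is highest, at 85.7%, for replication genes.

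At the centromere, CENPA and the network around it parted. CENPA encodes the histone H3 variant that marks the centromere. Its values were 8.47, 8.37 and 8.36 in epirubicin arrays, against 9.36, 9.28 and 9.28 in control arrays (log2 expression). The groups were far apart, a 1.87-fold fall (log2 fold change -0.90, SE 0.04, limma adjusted p = 5.26e-05), and all 4 of its probe sets were called lower. CENPK and CENPH encode neighbouring subunits of the inner network. CENPK had 8.03, 7.97 and 8.06 in epirubicin arrays and 8.03, 8.03 and 8.10 in control arrays, and CENPH had 8.77, 8.74 and 8.74 against 8.77, 8.69 and 8.72. Both groups overlapped in either gene, and the 95% confidence intervals of the change, -0.12 to 0.06 for CENPK and -0.06 to 0.10 for CENPH, exclude a 1.3-fold change, which is 0.38 on the log2 scale. CENPB, which binds a motif in alpha-satellite DNA, had 6.96, 7.01 and 6.88 against 6.93, 6.85 and 6.81 in control arrays, also overlapping.

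The other 9 genes of the inner network were not called either. CENPI, CENPC, CENPL and CENPW lay between -0.24 and -0.15, all with adjusted p under 0.05 in limma but under the fold threshold. CENPC, which bridges the centromeric nucleosome to the outer kinetochore, stood at -0.19 (CI -0.28 to -0.11). CENPT and CENPN stood at -0.09 and -0.06, and CENPQ and CENPO at 0.05 and 0.06. CENPM was the highest of the role at 0.27 (CI 0.17 to 0.38, limma adjusted p = 0.00429), with 9.40, 9.54 and 9.46 in epirubicin arrays and 9.19, 9.17 and 9.23 in control arrays, a separated but small difference. Averaged over the 12 genes without CENPA, the array means were 7.96, 8.02 and 7.95 in epirubicin arrays and 8.03, 7.999 and 8.02 in control arrays, which overlap.

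In the outer kinetochore the genes that fell were those of large microtubule-linked proteins and of NUF2. CENPE encodes a kinesin motor that carries chromosomes to the spindle equator. It had 7.23, 7.31 and 7.15 in epirubicin arrays, against 8.27, 8.25 and 8.28 in control arrays, a 2.05-fold fall. CENPF, a coiled-coil protein of the outer corona, had 8.35, 8.44 and 8.43 against 9.10, 8.99 and 9.06 in control arrays, a 1.56-fold fall, and both of its probe sets were called lower. NUF2, a subunit of the NDC80 complex that grips microtubules, had 8.37, 8.42 and 8.41 against 8.83, 8.91 and 8.96 in control arrays, a 1.41-fold fall. In each of these the groups did not overlap, and the limma adjusted p ran up to 0.000412.

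The NDC80 complex did not move as a unit past the fold threshold. Its namesake NDC80 stood at -0.30 (CI -0.40 to -0.20), SPC25 at -0.25 (CI -0.33 to -0.16) and SPC24 at -0.10 (CI -0.19 to -0.02, limma adjusted p = 0.0797), beside -0.50 for NUF2. Genes of the MIS12 complex, which anchors NDC80 to the centromere, had positive values that missed the call. DSN1 had 9.03, 9.04 and 8.99 in epirubicin arrays and 8.70, 8.66 and 8.75 in control arrays, a separated difference of 0.32 (CI 0.23 to 0.41). MIS12 stood at 0.26 (CI 0.15 to 0.36) with groups also apart. NSL1 had 9.82, 9.77 and 9.77 against 9.66, 9.79 and 9.66 in control arrays, overlapping. ZWINT, an outer kinetochore protein of the same layer, had 11.25, 11.22 and 11.22 against 11.30, 11.36 and 11.33 in control arrays, apart by 0.10 (limma adjusted p = 0.0585). Its other probe set stood at -0.20 (adjusted p = 0.0164 in limma over all probe sets).

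Among checkpoint genes the kinases and the cohesin protector SGO2 fell. SGO2 had 6.86, 6.80 and 6.94 in epirubicin arrays, against 7.91, 7.87 and 7.91 in control arrays, a 2.05-fold fall. All 3 of its probe sets were called lower (-1.19 to -1.03). BUB1, the kinase that marks centromeric chromatin for shugoshin and recruits other checkpoint proteins, had 8.93, 8.81 and 8.92 against 9.67, 9.78 and 9.74 in control arrays, a 1.80-fold fall. TTK, also called MPS1, starts checkpoint signalling at unattached kinetochores. It had 7.91, 7.95 and 7.79 against 8.46, 8.45 and 8.49 in control arrays, a 1.5-fold fall. BUB1B, which encodes the inhibitor BUBR1, fell 1.47-fold, and none of these 4 genes had overlapping groups.

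The other 3 checkpoint genes were not called. MAD2L1 encodes MAD2, which binds and blocks the anaphase activator CDC20. Its values were 10.33, 10.29 and 10.37 in epirubicin arrays and 10.51, 10.72 and 10.65 in control arrays, a difference of -0.30 (CI -0.44 to -0.16). BUB3, the partner of BUB1 and BUBR1, had 10.76, 10.75 and 10.73 against 10.85, 10.90 and 10.88 in control arrays, a difference of -0.13 (CI -0.20 to -0.05). Its other 2 probe sets had opposite signs, at 0.11 and -0.21, neither called. SGO1, the paralog of SGO2 and formerly SGOL1, stood at -0.35 (CI -0.49 to -0.22), close to the fold threshold, with 2 other probe sets near -0.1. On their brightest probe sets, all 7 checkpoint genes lay below their control arrays on every epirubicin array, beside 20.1% of all genes.

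The chromosomal passenger complex corrects faulty attachments and later moves to the midbody. It comprises the kinase AURKB, its activator INCENP and the targeting subunits BIRC5 (survivin) and CDCA8 (borealin). CDCA8 had 7.79, 7.85 and 7.77 in epirubicin arrays, against 8.65, 8.67 and 8.66 in control arrays, a 1.81-fold fall, and both of its probe sets were called lower. BIRC5 had 8.78, 8.87 and 8.83 against 9.60, 9.60 and 9.59 in control arrays, a 1.70-fold fall, and 8 of its 12 probe sets were called lower. The brightest probe set gave the largest fall of the 12, at -0.77, and the mean of all 12 stood at -0.47. INCENP had 6.23, 6.09 and 6.13 against 6.85, 6.64 and 6.70 in control arrays, a 1.5-fold fall. AURKB itself, read by 1 probe set, had 8.56, 8.57 and 8.54 against 8.66, 8.68 and 8.72 in control arrays: separated, but a difference of only -0.13 (CI -0.21 to -0.05, limma adjusted p = 0.0283).

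**Figure D3:**
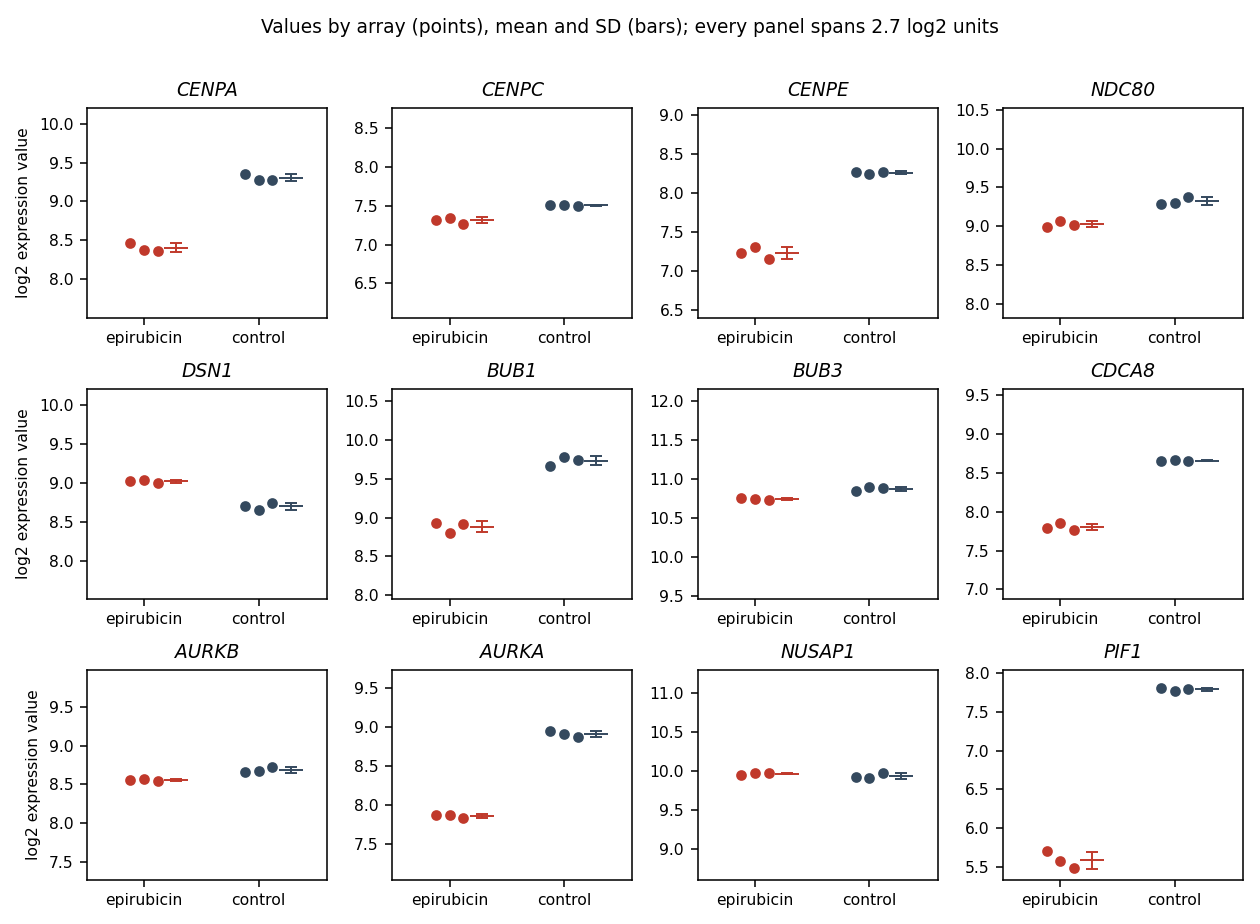
Log2 expression value (y axis) of 12 genes on each array, with epirubicin left and control right, points for arrays and bars for mean and SD (n = 3 each). Each panel spans the same range, so PIF1 with 5.59 ± 0.11 in epirubicin and 7.79 ± 0.02 in control arrays shows the widest gap, while NUSAP1 groups overlap and DSN1 lies above its control arrays.

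Spindle genes held the most calls. FAM83D, which recruits a casein kinase to the spindle, had 7.06, 7.13 and 6.997 in epirubicin arrays, against 8.24, 8.23 and 8.31 in control arrays, a 2.30-fold fall. NEK2, a centrosomal kinase that splits centrosomes, had 7.58, 7.50 and 7.51 against 8.73, 8.72 and 8.67 in control arrays, a 2.26-fold fall. All 7 of its probe sets were called lower (-1.40 to -0.72). DLGAP5 (HURP), which stabilises kinetochore fibres, had 7.48, 7.59 and 7.61 against 8.68, 8.70 and 8.65 in control arrays, a 2.17-fold fall. No values of these 3 genes overlapped between groups.

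AURKA, the centrosomal Aurora kinase, fell, as did its partners BORA and TPX2. AURKA, read by 1 probe set as AURKB was, had 7.87, 7.87 and 7.83 in epirubicin arrays, against 8.96, 8.91 and 8.88 in control arrays, a 2.08-fold fall (limma adjusted p = 1.29e-05). BORA, the cofactor with which AURKA activates PLK1, fell 1.81-fold, and all 3 of its probe sets were called lower (-0.86 to -0.45). TPX2, which activates AURKA on spindle microtubules, fell 1.47-fold. ASPM, a spindle pole protein, fell 1.93-fold, HMMR, a microtubule-binding protein, 1.66-fold, CKAP5, a microtubule polymerase, 1.47-fold, and GTSE1, a microtubule stabiliser, 1.45-fold. SPAG5 (astrin), at -0.36 on its brightest probe set, was just short of the call, and its other probe set was called lower at -0.59.

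A pair of microtubule-associated genes of the spindle stood apart from that pattern. NUSAP1, a spindle microtubule bundler, had 9.95, 9.97 and 9.97 in epirubicin arrays and 9.92, 9.91 and 9.98 in control arrays, overlapping, with a change of 0.03 (CI -0.05 to 0.11). Its sign turned to -0.06 as the mean of its 3 probe sets. CKAP2 had 8.62, 8.70 and 8.60 against 8.75, 8.77 and 8.85 in control arrays, apart by -0.15 (CI -0.25 to -0.04).

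Of the 6 genes of cytokinesis, 5 fell. ARHGAP11A, a RhoA GTPase-activating protein, had 6.85, 7.01 and 6.80 in epirubicin arrays, against 7.73, 7.72 and 7.77 in control arrays, a 1.81-fold fall. All 4 of its probe sets were called lower (-1.05 to -0.76). ANLN (anillin), the scaffold of the contractile ring, had 7.51, 7.58 and 7.51 against 8.24, 8.20 and 8.16 in control arrays, a 1.59-fold fall. All 4 of its probe sets were called lower (-0.81 to -0.59). ECT2, the exchange factor that activates RhoA at the cell equator, had 7.37, 7.34 and 7.39 against 7.83, 7.84 and 7.72 in control arrays, a 1.34-fold fall. All of these were separated by more than the spread within either group.

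CEP55, which recruits the abscission machinery to the midbody, fell 1.34-fold. PRC1, the bundler of central spindle microtubules, had 9.42, 9.43 and 9.44 in epirubicin arrays, against 9.84, 9.85 and 9.83 in control arrays, a 1.33-fold fall. It was the called gene nearest to the fold threshold. RACGAP1, the centralspindlin subunit that binds ECT2, had 8.81, 8.85 and 8.82 against 9.16, 9.20 and 9.22 in control arrays and was the nearest outside it, at -0.37 (limma adjusted p = 0.000508). Its other 2 probe sets were called lower at -0.71 and -0.64, so the brightest probe set gave the smallest change of the 3.

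The remaining 3 genes all fell. PIF1, a DNA helicase of the nucleus and mitochondria, had 5.70, 5.57 and 5.49 in epirubicin arrays, against 7.80, 7.76 and 7.80 in control arrays. This 4.60-fold fall ranked 2 from the bottom of all 17534 genes (limma adjusted p = 4.78e-06), and its other 2 probe sets were called lower at -1.23 and -0.65. CDCA3, a trigger of mitotic entry that promotes WEE1 destruction, had 6.85, 7.03 and 6.92 against 7.71, 7.71 and 7.62 in control arrays, a 1.68-fold fall. A second, dim CDCA3 probe set stood at 0.03, and the mean of both at -0.36 was not called. CKS2, a small cofactor of cyclin-dependent kinases, had 9.99, 10.00 and 10.02 against 10.76, 10.68 and 10.75 in control arrays, a 1.65-fold fall.

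Where a gene called lower had more than 1 probe set, they mostly moved together. Of the 56 genes 19 had only 1, among them AURKA, AURKB, BUB1, BUB1B, TTK, TPX2, CENPE, FAM83D, NUF2, NDC80, DSN1 and CENPM. The 56 genes had 143 probe sets, of which 75 were called lower and 0 higher in limma over all 47481 probe sets, where 2.62% were called lower. Of the 20 genes called lower with more than 1 probe set, 18 had every probe set called lower, the exceptions being BIRC5 and CDCA3. RACGAP1 and SPAG5 were the 2 genes not called that had a probe set called lower. Among the genes not called, BUB3, CENPI, CENPN, CENPT, NSL1 and NUSAP1 had probe sets of opposite sign.

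Changes were also set against each other within arrays for 7 pairs of related genes, some of 1 complex and others of neighbouring ones. The fall of AURKA exceeded that of AURKB by 0.93 on the log2 scale (a difference in change of -0.93), and the fall of CDCA8 exceeded that of AURKB by 0.73 (-0.73). The change of CENPA minus that of CENPC was -0.71, that of CENPE minus NDC80 -0.74, that of BUB1 minus BUB3 -0.72 and that of NUF2 minus SPC24 -0.40. DSN1 minus NDC80 ran the other way, at 0.62. Each gene was read on its brightest probe set, which gave SPC24 the smallest fall of its 5. The 3 probe sets of BUB3 differed in sign. These 7 pairs were chosen after their values were seen, so the separation and the p-values that follow cannot serve as support. In each the within-array difference of the 3 epirubicin arrays lay wholly on one side of that of the 3 control arrays, and the exact permutation test, two-sided, gave p = 0.1 for every pair (adjusted p = 0.1 over the 7), the smallest that 3 against 3 arrays allow.

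Other genes of the same processes were counted too, beside 2.14% of all genes called lower and 4.36% higher. A count of 0 or 1 in lists this short is near those shares. Of 20 further kinetochore genes measured, 3 were lower and 1 higher, with a median of -0.13. TRIP13, the ATPase that remodels MAD2, stood at -0.67, SPDL1 (spindly), a dynein adaptor, at -0.51 and the CENP-A chaperone HJURP at -0.38. The 1 higher was CENPU, of the inner network, at 0.41 on 1 of its 2 probe sets, and CENPX stood at -0.35, not called. Of 19 cohesin and condensin genes 1 was lower, the condensin subunit NCAPD2 (-0.46), with a median of -0.13, and the cohesin and condensin subunits RAD21 and SMC4 were not called (-0.15 and -0.13).

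Of 24 genes of microtubule nucleation and dynamics 2 were lower, RCC1, which loads Ran for spindle assembly (-0.49; 1 of 2 probe sets), and TACC3, a stabiliser of kinetochore fibres (-0.44; 3 of 6 probe sets). Gamma-tubulin, TUBG1, stood at -0.24 and MAPRE1 (EB1) at -0.03, neither called. Of 10 genes of abscission and the contractile ring 0 were called, beside 6.51% of all genes, a share at which 10 genes could well show none. Log2 fold changes ran from -0.19 to 0.10, and RHOA stood at -0.09 and CHMP4B at -0.01. In limma 2 were lower at an adjusted p under 0.05 without the fold threshold, beside 13.5% of all genes. The RhoA regulators ECT2 and ARHGAP11A fell while RHOA itself was not called.

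Neighbouring cell cycle genes are given side by side, without a test between lists, again beside 2.14% of all genes lower and 4.36% higher. Mitotic kinesins had 6 of 12 lower and 0 higher, with a median of -0.34, led by KIF20A (-1.69) and KIF14 (-1.17), and with KIF11 (-0.27) and KIF2C (-0.26) not called on their brightest probe sets. Of 24 replication genes 0 were lower and 2 higher, GINS4 (0.59) and PCNA (0.45), with a median of 0.02. Without the fold threshold 7 were lower and 9 higher in limma, beside 13.5% and 15.6% of all genes. TYMS and RRM2 stood at 0.29 and -0.02, not called. In their windows a CHR was matched in 75% of kinesins and 4.76% of replication genes, and an E2F core in 25% and 85.7%.

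**Figure D4:**
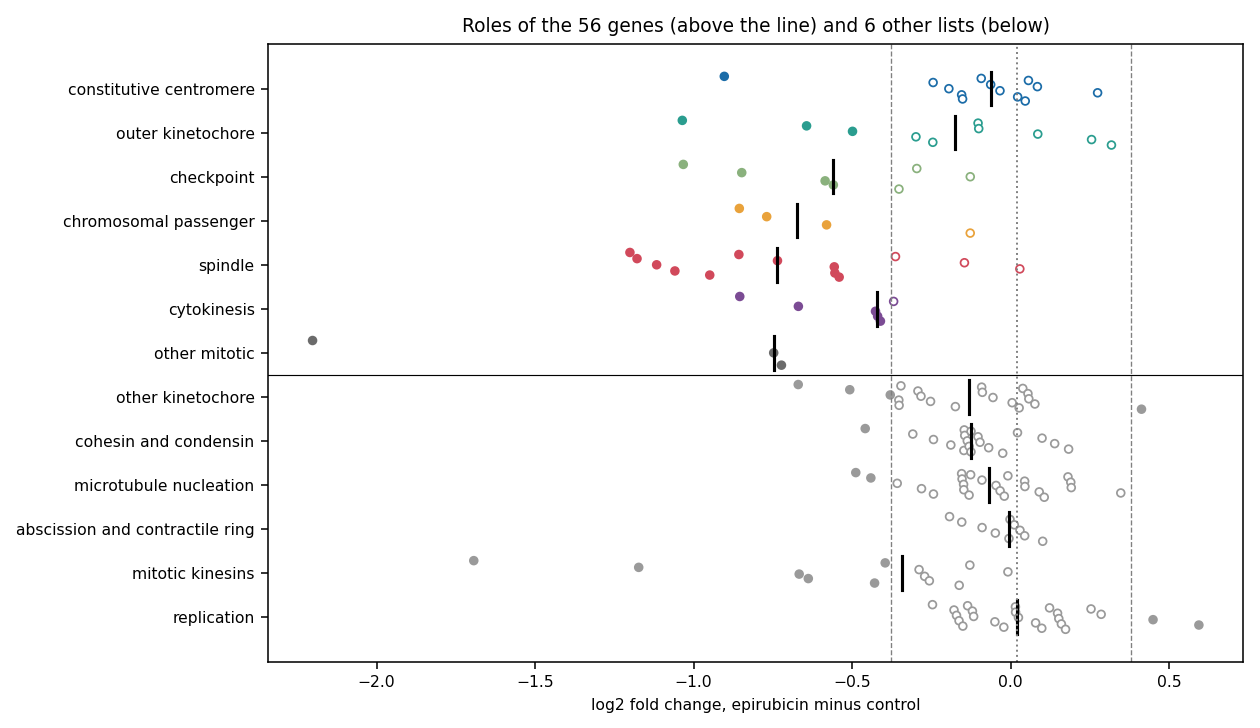
Log2 fold change (x axis, epirubicin minus control) of the 56 genes by role, above the line, and of 6 other gene lists, below it; filled points were called, black bars are list medians, the dotted line is the median of all genes and dashed lines mark 1.3-fold. The medians run from -0.75 for the 3 other mitotic genes to 0.02 for replication genes. Constitutive centromere genes other than CENPA spread to both sides of the dotted line, from -0.24 to 0.27, within the dashed lines.

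Markers of plasma cells and of other blood cells were read on the same arrays. Plasma cell markers SDC1, TNFRSF17, IRF4, XBP1, PRDM1, MZB1, JCHAIN, POU2AF1 and SLAMF7 had control means from 11.24 (IRF4) to 13.27 (JCHAIN) on the log2 scale, and CD38 one of 6.42. Of these 10 markers 2 fell, CD38 (-1.18) and IRF4 (-0.49), beside 2.14% of all genes. Of the B cell markers 3 were measured and 0 called, with control means of 9.77 for PAX5, a B cell factor that plasma cells normally switch off, 5.40 for CD22 and 3.69 for MS4A1. Markers of T and NK cells, 6 measured, ran from 2.96 to 5.78 in control arrays. Those of myeloid cells, 5 measured, ran from 2.39 to 5.18. Of these 11 markers 0 were called at the fold threshold, beside 6.51% of all genes. At a limma adjusted p under 0.05 alone 2 were higher, beside 15.6% of all genes. Counts this small in lists this short, the B cell markers among them, are near those shares. Across probe sets, r was 0.994 to 0.995 between an epirubicin and a control array and 0.998 within either group. The submitters' sample codes differ between the groups, so a batch that followed them cannot be told apart from the drug.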

How the data were processed

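The deposited table gives the authors' log2 expression value per probe set (47481) and array. The scale was read from the values (1.41 to 13.73), no label stating it, and the sources used here give no background correction or normalization. The submitters' processing notes name the affy package. Array medians lay between 5.52 and 5.57, and nothing was normalized further. Scanner files and detection calls were not used here, so dim values have unknown background, and having 3 arrays a group limits precision.

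Gene names came from GEO's platform annotation: of the probe sets, 43976 had 1 symbol, 1558 several and 1947 none. Of the 43976, 43954 matched RefSeq (GRCh38.p14) by Entrez number. Each of 17534 genes was read by its brightest probe set. limma 3.58.1 in R 4.3.3 compared 3 epirubicin with 3 control arrays, with Benjamini-Hochberg adjustment over all genes and the series' own thresholds. SE and CI (95%) are limma's. On simulated data, 97.2% of 2-fold, 87.2% of 1.5-fold and 37.2% of 1.3-fold changes among the 17534 genes were recovered. Recovery required an estimated fold of at least 1.3, so changes of exactly 1.3-fold were bound to be missed often.

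The members and gene lists, and the classes of role, were chosen with earlier results of these data known. Values by array are given, per role, for up to 3 called genes with the largest change and 2 with the smallest, plus 7 preset genes and a few more. For each other list, the genes named are up to 2 called per direction and the 2 with the highest mean. HJURP, CENPM, DSN1 and the others beyond that rule were added after their values were seen. Listed genes that no single-gene probe set named were not analysed here. Alternatives comprised the mean of probe sets, an intensity trend, quantile normalization, centring, a filter on dim genes, a replicate block, single arrays left out and other fold thresholds.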

Additional observations from a re-analysis of the deposited data

How the results depend on the processing

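Of the 29 genes called lower, 27 were called lower in all 12 refits. The exceptions were PRC1 (-0.38 after quantile normalization) and CDCA3 (-0.36 as the mean of its probe sets). RACGAP1, SPAG5 and SGO1 were each called lower under at least 3 refits, among them centring and leaving out epirubicin replicate 2. With 1 array left out the count of members lower ran from 29 to 32, and 0 were higher. Without control replicate 1 it was 31, and without epirubicin replicate 2 it was 32. The median moved to -0.47 with the mean of probe sets, -0.39 with quantile normalization and -0.45 with centred arrays, and lay between -0.42 and -0.40 with 1 array left out.

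With adjusted p alone, 2362 genes were lower and 2744 higher, among them 3 of the 56 higher, 5 constitutive centromere genes lower and 1 higher, 5 outer kinetochore genes lower and 2 higher, and 7 checkpoint genes lower. At 2-fold, 19 genes were lower and 85 higher, among them 7 of the 56, with 0 constitutive centromere, 1 outer kinetochore, 1 checkpoint, 0 chromosomal passenger, 4 spindle, 0 cytokinesis and 1 other mitotic gene lower. Small changes turned sign: CENPH (-0.0104) and NUSAP1 (-0.00354) with centred arrays, and CENPN (0.024) and NUSAP1 (-0.059) as the mean of probe sets. The causes were not tested.

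Same-numbered arrays did not deviate together (r = -0.06, -0.0004 and -0.007), so the numbers were not taken to pair them. With the replicate block 29 of the 56 were lower and 0 higher, the same 29 genes, with all genes called lower numbering 372 and all genes called higher 755. The number of arrays and unknown background limit what dim probe sets can show.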
